A study of Mus musculus with 6 samples.

Results

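The genes described here are 9 genes of enteroendocrine cells, the hormone-secreting cells scattered through the intestinal epithelium. They were chosen by name from the 54446 genes of the deposited count table. Neurog3, Neurod1, Insm1, Pax6 and Isl1 encode transcription factors of endocrine fate, and Chga, Chgb, Cpe and Pcsk1 encode proteins of the secretory granule. Transcripts were measured by RNA sequencing in epithelial cells of the jejunum of mice aged 3 to 4 months. The knockout group (n = 3) carried Prkci flox/flox with Villin-CRE, a recombinase driven by a promoter active throughout the intestinal epithelium. The control group (n = 3) carried Prkci flox/flox alone, so both groups had floxed alleles of Prkci, the gene for atypical protein kinase C iota/lambda. Each library came from a separate mouse. The series was made to find which epithelial transcripts change when the kinase is lost.

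Enteroendocrine cells arise from crypt progenitors that switch on Neurog3 for a short time. Neurod1, Insm1, Pax6 and Isl1 act downstream of Neurog3 and set up hormone production. Mature cells store peptide hormones in dense-core granules, where chromogranins help to pack the cargo, the convertase encoded by Pcsk1 cuts prohormones after pairs of basic residues, and carboxypeptidase E, encoded by Cpe, trims the basic residues left at the cut ends.

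Prkci stood at 21.5, 14.6 and 21.4 CPM (counts per 1e6 counts, scaled for library composition) in the 3 knockouts, against 44.6, 46.9 and 44.0 CPM across the 3 controls, with libraries always given in the order of replicates 1 to 3. Total counts ran from 18972906 to 26687856 per library in the knockouts and from 22453798 to 23008047 in the controls. The 9 epithelial marker genes, Epcam and Vil1 among them, summed to 8627 to 10369 CPM in knockout libraries and 8568 to 8693 CPM in control libraries. Knockout replicate 1 lay at −21.9 on the first principal component, nearer to the controls (−33.3 to −30.4) than to knockout replicates 2 and 3 (68.0 and 50.9). By Xist and Ddx3y counts, knockout replicates 2 and 3 and control replicate 3 came from females. Results without knockout replicate 1 therefore set 2 female knockouts against 1 female and 2 male controls.

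The 3 granule genes whose knockout and control libraries did not overlap were Chga, Chgb and Pcsk1, and their promoter windows are shown because 2 of them hold the same element. The windows run from 250 bases before to 50 after the RefSeq start and lie on the plus strand of GRCm38.p6, at chr12:102554691-102554990 for Chga, chr2:132781392-132781691 for Chgb and chr13:75089607-75089906 for Pcsk1. Capitals mark TGACGTCA, the cyclic AMP response element, in Chgb and Pcsk1, and TGACGTAA, which differs from it at 1 base, in Chga.

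Chga: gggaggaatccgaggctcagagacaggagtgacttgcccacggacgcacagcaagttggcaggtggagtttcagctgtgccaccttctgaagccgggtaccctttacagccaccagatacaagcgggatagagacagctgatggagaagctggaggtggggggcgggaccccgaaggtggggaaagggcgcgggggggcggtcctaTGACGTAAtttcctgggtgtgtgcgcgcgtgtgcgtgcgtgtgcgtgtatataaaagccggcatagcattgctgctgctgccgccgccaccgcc

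Chgb: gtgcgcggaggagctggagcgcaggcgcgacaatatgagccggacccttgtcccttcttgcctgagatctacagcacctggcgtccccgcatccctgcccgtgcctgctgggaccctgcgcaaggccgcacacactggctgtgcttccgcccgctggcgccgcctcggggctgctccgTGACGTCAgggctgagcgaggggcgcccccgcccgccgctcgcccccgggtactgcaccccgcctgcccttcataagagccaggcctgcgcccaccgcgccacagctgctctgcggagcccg

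Pcsk1: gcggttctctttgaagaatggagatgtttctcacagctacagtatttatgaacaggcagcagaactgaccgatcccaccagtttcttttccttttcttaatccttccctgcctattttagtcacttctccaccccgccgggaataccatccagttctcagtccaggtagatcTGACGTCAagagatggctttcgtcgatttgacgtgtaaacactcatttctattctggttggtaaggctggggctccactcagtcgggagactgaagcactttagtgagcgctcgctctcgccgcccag

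Counting back from the RefSeq start, TGACGTCA began at base −72 in Chgb and −78 in Pcsk1, and TGACGTAA at −44 in Chga. Both strands were searched, and TGACGTCA reads the same on both. It was singled out after the matches of the 10 motifs searched were seen. TGACGTCA was in 1.79% of the 32851 mouse windows of this length, and TGACGTAA in 0.499%. Windows were found for 7 of the 9 genes, Cpe and Insm1 having none. Of these, Pax6 also held TGACGTCA, at −76 of 1 of its 2 windows, and Pax6 differed by less than its error between the genotypes. Across the 362 tested genes with TGACGTCA in a window, 27 were higher at an unadjusted p below 0.05 (7.46%), against 9.82% of the 10370 tested genes with a window, and the median log2 fold change was 0.01 and 0.013 in these sets. The E-box CANNTG, the kind of site bound by Neurog3 and Neurod1 proteins, was in 72.3% of all windows. It occurred in the windows of Chga (3 times, at −191, −179 and −116), Chgb (at −176 and 31), Neurod1, Neurog3, Isl1 and Pax6, but not in that of Pcsk1. Its form CAGATG (17.2% of all windows), TGACGCAA (0.49%) and TGACGCCA (0.81%) were in none of the windows of the 9 genes. TGACG, which lies within TGACGTCA and TGACGTAA, was in 20.8% of all windows and in those of Chga, Chgb, Pcsk1, Isl1 and Pax6. TATAAA (13.6%) was in that of Chga, where it began at base 6 after the RefSeq start. All positions given depend on the start that RefSeq annotates. CCAAT (37.4%) was in those of Isl1, Neurog3 and Pax6, and GGGCGG (35.7%) in those of Chga, Chgb, Pcsk1 and Neurod1.

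Granule genes stood higher in all knockout libraries than in all control libraries for 3 of the 4, by folds of 1.30 to 2.05. None of the 9 genes passed the adjusted threshold of 0.05 in edgeR's quasi-likelihood test across the 15068 genes tested, where 9 genes (0.0597%) did. Prkci, the gene targeted in the knockouts, did not pass it either (log2 fold change −1.24, SE 0.17, edgeR adjusted p = 0.0719), while DESeq2 gave it an adjusted p of 9.73e-08. At an unadjusted p below 0.05, 3 of the 8 tested members were higher and 0 lower, against 9.32% of all genes higher and 7.09% lower. The groups did not overlap, with the knockouts higher, for the same 3 genes, against 10.0% of all genes. Neurog3 did not pass the filter on low counts. In bulk RNA, a different number of enteroendocrine cells and a different amount of RNA per cell cannot be told apart.

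Pcsk1, the prohormone convertase gene (ENSMUSG00000021587.5, chromosome 13, 75089826 to 75134861), had the largest log2 fold change of the 8 tested genes. It stood at 21.6, 39.2 and 30.8 CPM in the 3 knockouts, against 16.5, 13.3 and 15.0 CPM across the 3 controls. The lowest knockout, replicate 1, was closer to the highest control than to the other knockouts. The mean was 30.5 ± 8.81 CPM in knockouts and 14.9 ± 1.58 CPM in controls (SD, n = 3 each). The log2 fold change was 1.03 (SE 0.22, edgeR adjusted p = 0.121). DESeq2 placed Pcsk1 past the threshold on the same 6 libraries (adjusted p = 0.00244), as it did 3.62% of genes in this direction. Without knockout replicate 1 the log2 fold change was 1.23 (edgeR adjusted p = 0.00325), where 10.0% of genes were higher past the threshold. With sex by Xist and Ddx3y as a covariate it was 0.88 (edgeR adjusted p = 0.192).

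Chgb, which encodes the chromogranin secretogranin I (ENSMUSG00000027350.8, chromosome 2, 132781278 to 132795079), had the highest CPM of the 9 genes, also per length of exon. It stood at 127, 188 and 142 CPM in the 3 knockouts, against 102, 87.8 and 99.8 CPM across the 3 controls. Knockout replicate 2 was the highest and replicate 1 again the lowest of the knockouts. The mean was 152 ± 31.3 CPM in knockouts and 96.7 ± 7.79 CPM in controls (SD, n = 3 each), with a log2 fold change of 0.66 (SE 0.16, edgeR adjusted p = 0.147). DESeq2 gave an adjusted p of 0.0164. Without knockout replicate 1 the edgeR log2 fold change was 0.77 (adjusted p = 0.0109).

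Chga, the chromogranin gene used as a general endocrine marker (ENSMUSG00000021194.6, chromosome 12, 102554969 to 102565028), differed by a smaller amount with less spread. It stood at 50.9, 60.0 and 51.5 CPM in the 3 knockouts, against 44.9, 39.3 and 40.5 CPM across the 3 controls. The means were 54.1 ± 5.11 CPM in knockouts and 41.6 ± 2.97 CPM in controls (SD, n = 3 each). The log2 fold change was 0.38 (SE 0.11, edgeR adjusted p = 0.187), and DESeq2 gave an adjusted p of 0.0884. It passed in 2 of 15 alternatives, both without knockout replicate 1, by edgeR (log2 fold change 0.42, adjusted p = 0.0365) and by DESeq2 (adjusted p = 0.0177). For Pcsk1, Chgb and Chga the exact two-sided permutation test over libraries gave p = 0.1 each, the smallest that 3 against 3 libraries allow.

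Cpe, the carboxypeptidase gene (ENSMUSG00000037852.8, chromosome 8, 64592542 to 64693054), did not follow the other granule genes. It stood at 93.3, 19.2 and 21.0 CPM in the 3 knockouts, against 22.0, 22.6 and 39.1 CPM across the 3 controls. Knockout replicate 1 was the highest library, while knockout replicates 2 and 3 lay below all controls. The log2 fold change was 0.67 (SE 0.62, edgeR adjusted p = 0.609), and it turned to −0.47 without knockout replicate 1 (adjusted p = 0.245). A difference in Cpe between the genotypes was therefore not resolved from the spread of these libraries.

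**Figure D1:**
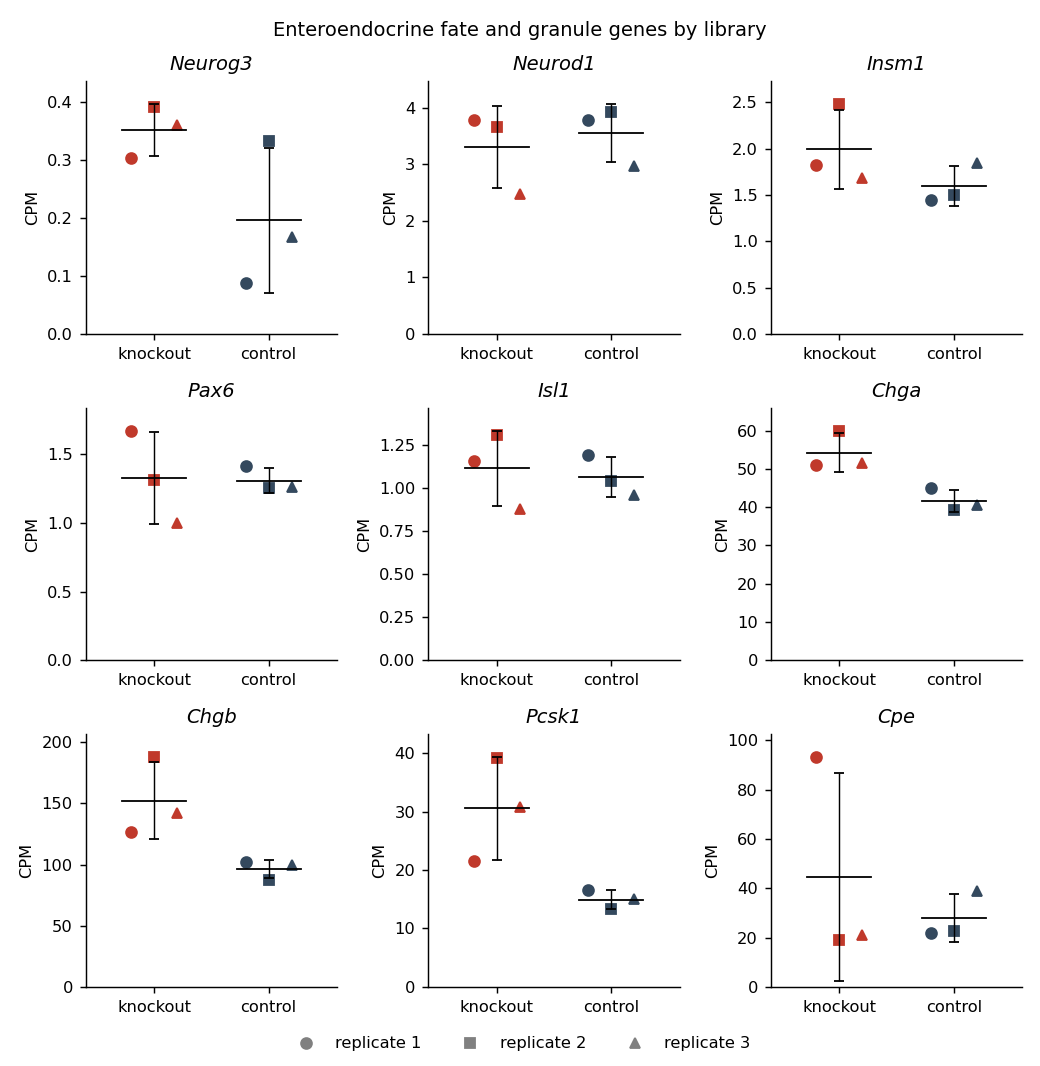
CPM of the 9 genes in each library, knockouts left and controls right in each panel, with marker shape for the replicate, a line at the group mean and a bar of 1 SD (n = 3 each). Chga, Chgb and Pcsk1 are higher in every knockout than in any control, Cpe is highest in knockout replicate 1 at 93.3 CPM, and the 5 fate factors overlap between the groups.

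Levels of Cpe were set beside markers of other cell types, since the gene is also expressed outside endocrine cells. B cell and endothelial markers were added after the genes with the profile nearest to that of Cpe were seen, so they are no independent check. All 10 B cell markers were highest in knockout replicate 1. They summed to 84.4, 16.2 and 18.9 CPM in the 3 knockouts, against 23.7, 22.2 and 17.8 CPM across the 3 controls. The 8 endothelial markers, of which 6 were highest in knockout replicate 1, summed to 16.9, 6.67 and 8.21 CPM in the knockouts, against 3.17, 3.08 and 4.94 CPM in the controls. The 10 fibroblast markers summed to 244, 158 and 160 CPM in the knockouts, against 128, 169 and 167 CPM in the controls, most of it Gsn. Without Gsn, left out after the values were seen, they summed to 50.0, 5.01 and 29.0 CPM in the knockouts, against 4.00, 5.58 and 16.9 CPM in the controls. Smooth muscle markers (10 genes) summed to 51.9, 12.9 and 84.7 CPM in the knockouts, against 12.6, 14.7 and 16.9 CPM in the controls. Knockout replicate 1 was thus the highest library for Cpe and for B cell, endothelial and fibroblast markers, while knockout replicate 3 was the highest for smooth muscle markers and low for Cpe. Control replicate 3 was the highest control for Cpe and for the endothelial, smooth muscle and, without Gsn, fibroblast markers, but the lowest control for B cell markers. The part of these cells in the Cpe level was not tested.

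**Figure D2:**
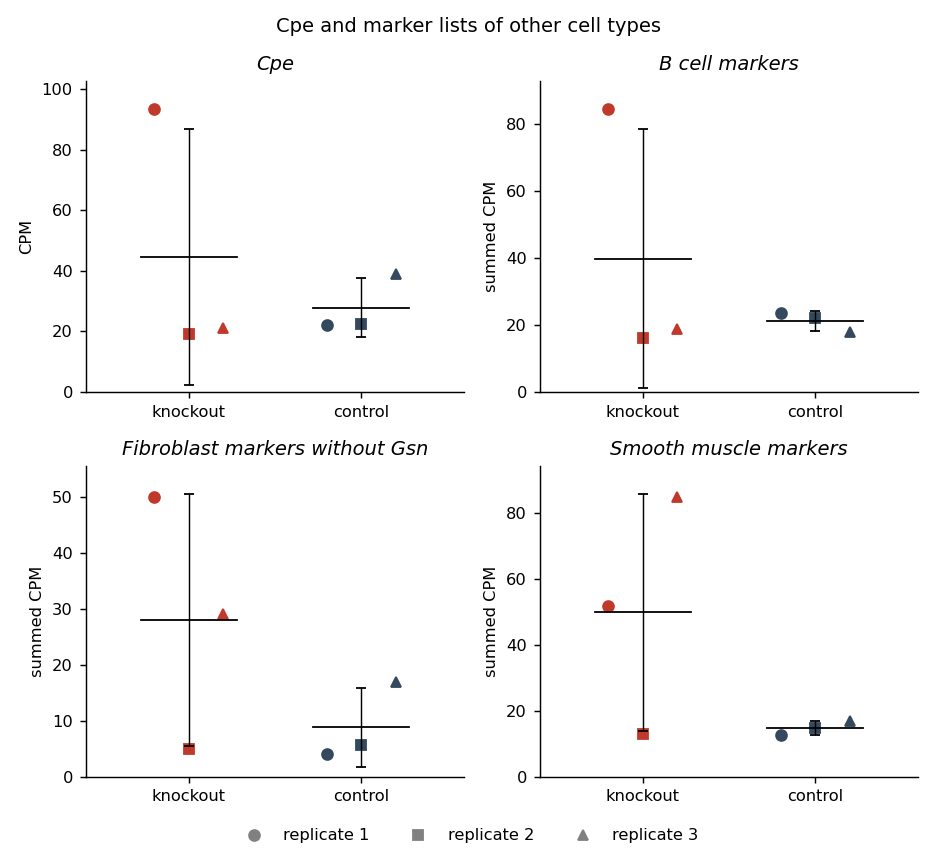
Cpe (CPM) and the summed CPM of B cell, fibroblast (without Gsn) and smooth muscle markers in each library, knockouts left and controls right, with marker shape for the replicate, a line at the mean and a bar of 1 SD (n = 3 each). Knockout replicate 1 is the highest library for Cpe, B cell and fibroblast markers, and knockout replicate 3 for smooth muscle markers at 84.7 CPM.

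Neurons of the gut wall also make chromogranins and Pcsk1. Of 18 enteric neuron markers, 3 passed the filter on low counts, and the list summed to 10.6 to 11.9 CPM in knockout libraries and 7.75 to 11.3 CPM in control libraries. Most of each sum was Ret, Chat and Snap25, and Ret and Chat differed in opposite directions. Their means were 7.36, 1.17 and 1.39 CPM in knockouts, against 3.97, 3.05 and 1.41 CPM in controls. The markers below the filter had 0 to 18 counts each in the 3 knockouts together and 0 to 12 in the 3 controls. Among them, the neuronal tubulin gene Tubb3 had 4, 6 and 7 counts in the knockouts, against 0, 0 and 0 in the controls, while the neuronal RNA-binding protein genes Elavl3 and Elavl4 had 2 each in the knockouts together, against 2 and 1 in the controls. Ret, Chat and Snap25, the 3 tested, had log2 fold changes of 0.89, −1.43 and −0.018 with edgeR adjusted p of 0.233, 0.543 and 0.979. Chat stood at 3.34, 0.0871 and 0.0801 CPM in the 3 knockouts, against 3.43, 2.29 and 3.43 CPM across the 3 controls. Without knockout replicate 1 the log2 fold change was −5.11 for Chat and 1.13 for Ret (edgeR adjusted p = 0.00104 and 0.0197). In that fit 10.0% of all genes were called higher and 7.44% lower. None of the 8 enteric glia markers passed the filter, and they had 0 to 23 counts each in the knockouts together and 0 to 20 in the controls. The glial factor gene Sox10 had 1 count in the knockouts and 0 in the controls. S100b had 5 against 0, Cryab 9 against 1 and Ncam1 15 against 2. In CPM, S100b and Cryab did not overlap between the groups, as held with knockouts higher for 10.0% of tested genes. Cryab had 1 count in both knockout replicate 2 and control replicate 3, so its groups parted only after scaling. With no filter, the edgeR adjusted p was 0.349 for S100b, 0.363 for Cryab and 0.348 for Ncam1. Leukocyte markers (12 genes) summed to 630 to 843 CPM in knockout libraries and 234 to 286 CPM in control libraries, and the groups did not overlap. Of these 12, 9 were higher at an unadjusted p below 0.05, against 9.32% of all genes. So were 5 of 6 tested smooth muscle markers, 0 of 7 fibroblast and 0 of 9 epithelial markers, and edgeR called none after adjustment. The groups overlapped for all 6 smooth muscle markers. Knockout replicate 2 had 0.566 CPM for Myh11 and 0.0871 CPM for Acta2, against 0.264 to 1.17 and 0.292 to 0.67 CPM in the controls. The leukocyte genes Gzma, Igha and Ptprc had log2 fold changes of 1.74, 1.96 and 0.37, the smooth muscle genes Smtn, Myh11 and Acta2 of 0.23, 4.41 and 3.69, the fibroblast genes Gsn, Col3a1 and Pdgfrb of 0.12, 1.83 and 0.69, and the epithelial genes Vil1, Epcam and Krt8 of 0.055, 0.36 and 0.20. The part of these cells in the levels of the granule genes was not tested.

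The 4 tested fate factors had log2 fold changes of −0.11 to 0.32, and Neurog3 had too few counts to test. Neurog3, the factor that starts endocrine differentiation (ENSMUSG00000044312.4, chromosome 10, 62133090 to 62134763), had 6, 9 and 9 counts in the 3 knockouts, against 2, 8 and 4 counts in the 3 controls. The knockout to control ratio of pooled counts, scaled by library size, was 1.79, with an exact 95% counting interval of 0.889 to 3.74. A difference in Neurog3 was thus not detectable at this depth. Fam241b lies across Neurog3 on the opposite strand with 112 to 211 counts per knockout library and 150 to 225 per control library, so reads of the pair may not be told apart.

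Neurod1, which carries on the endocrine programme after Neurog3 (ENSMUSG00000034701.9, chromosome 2, 79452521 to 79456751), stood at 3.79, 3.66 and 2.48 CPM in the 3 knockouts, against 3.78, 3.92 and 2.97 CPM across the 3 controls. The lowest library of each group was replicate 3, and the groups overlapped. The log2 fold change was −0.11 (SE 0.25, edgeR adjusted p = 0.856), and it turned to 0.012 with sex as a covariate. The gene overlaps Cerkl on the same strand, which had 22 to 33 counts per knockout library and 16 to 22 per control library, against 62 to 84 and 71 to 94 for Neurod1.

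Insm1, a zinc finger repressor of endocrine precursors (ENSMUSG00000068154.5, chromosome 2, 146221921 to 146225020), stood at 1.82, 2.48 and 1.68 CPM in the 3 knockouts, against 1.45, 1.50 and 1.84 CPM across the 3 controls. Control replicate 3 lay above 2 of the knockouts, and the log2 fold change was 0.32 (SE 0.26, edgeR adjusted p = 0.567). Pax6, a paired-box factor of peptide hormone cells (ENSMUSG00000027168.21, chromosome 2, 105668900 to 105697364), stood at 1.67, 1.31 and 1.00 CPM in the 3 knockouts, against 1.41, 1.25 and 1.26 CPM across the 3 controls. The knockouts held both the highest and the lowest Pax6 library, and the log2 fold change was 0.017 (SE 0.28, edgeR adjusted p = 0.981). Isl1, a LIM homeobox factor of hormone cells (ENSMUSG00000042258.13, chromosome 13, 116298281 to 116309689), stood at 1.16, 1.31 and 0.881 CPM in the 3 knockouts, against 1.19, 1.04 and 0.963 CPM across the 3 controls. The log2 fold change of Isl1 was 0.068 (SE 0.28, edgeR adjusted p = 0.921). Neurod1, Insm1, Pax6 and Isl1 had 75 to 221 pooled counts in the knockouts and 75 to 251 in the controls, and the SE of their log2 fold changes was 0.25 to 0.28, against 0.11 for Chga.

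Levels can be compared between genes only per length of exon. Per kilobase, Chgb was the highest at 55.6 ± 11.4 CPM in knockouts and 35.3 ± 2.84 CPM in controls (SD, n = 3 each). Chga followed at 19.6 ± 1.86 and 15.1 ± 1.08 CPM per kilobase in knockouts and controls, then Cpe at 17.1 ± 16.2 and 10.7 ± 3.73. Chga and Cpe overlapped in both groups. Pcsk1 stood at 5.45 ± 1.57 CPM per kilobase in knockouts and 2.66 ± 0.283 in controls, and Neurod1 at 1.21 ± 0.264 and 1.30 ± 0.187. Insm1, Isl1, Neurog3 and Pax6 lay below 1 CPM per kilobase in both groups and kept this order of means. Isl1 overlapped Neurog3 in the knockouts, and Neurog3 overlapped Pax6 in the controls.

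Ratios between the genes within a library do not depend on library scaling. For each Chga count there were 0.424, 0.653 and 0.598 Pcsk1 counts in the 3 knockouts, against 0.366, 0.338 and 0.371 in the 3 controls. All 3 knockouts lay above all controls, with means of 0.559 ± 0.119 in knockouts and 0.359 ± 0.0178 in controls (SD, n = 3 each). Chgb counts per Chga count were 2.5, 3.12 and 2.77 in the 3 knockouts, against 2.28, 2.23 and 2.47 in the 3 controls, so knockout replicate 1 exceeded the highest control by little. Pcsk1 counts per Neurod1 count were 5.69, 10.7 and 12.4 in the 3 knockouts, against 4.35, 3.39 and 5.06 in the 3 controls. Chga counts per Neurod1 count were 13.4, 16.4 and 20.7 in the 3 knockouts, against 11.9, 10.0 and 13.6 in the 3 controls, and these groups overlapped. Of 6 ratios, chosen after the values were seen, 4 did not overlap. Each of these had an exact two-sided permutation p of 0.1 and a Benjamini-Hochberg adjusted p of 0.15, and the others, Chga and Chgb per Neurod1, had p = 0.2 by the same exact test. Since 0.1 is the smallest p that this permutation test can give, it could not pass a threshold of 0.05 for any ratio, and no model of the ratios was fitted.

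**Figure D3:**
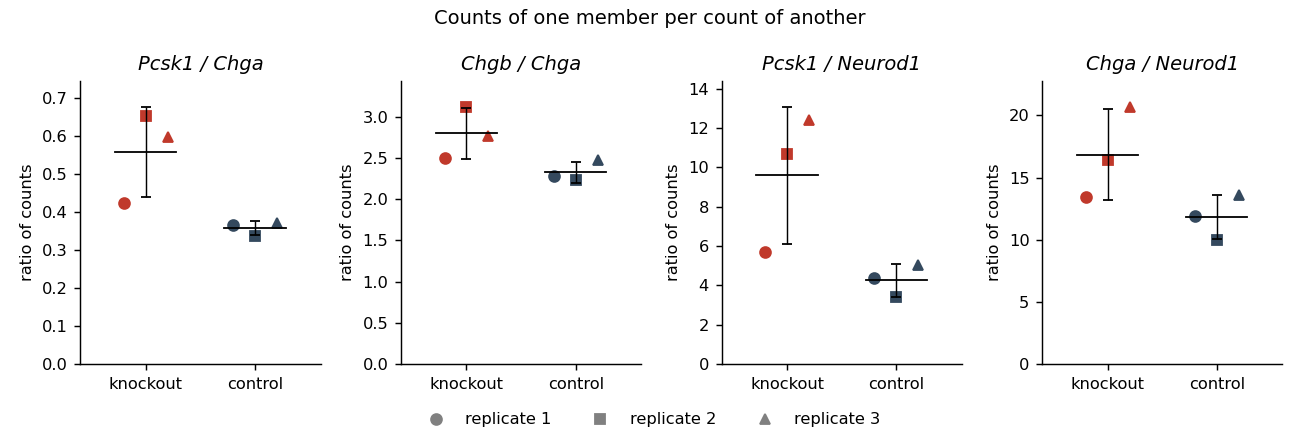
Ratio of counts of 1 gene to another in each library for 4 of the 6 ratios, knockouts left and controls right, with marker shape for the replicate, a line at the mean and a bar of 1 SD (n = 3 each). Pcsk1 per Chga runs from 0.424 to 0.653 in knockouts and from 0.338 to 0.371 in controls, and Chga per Neurod1 overlaps between the groups.

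The profile most like that of Chga was sought among all tested genes, by the root-mean-square difference of log2 CPM after centring each gene over the 6 libraries. The 5 nearest genes were N4bp1 (0.0398), S100a10 (0.0531), Plekhm1 (0.0551), Metrnl (0.0552) and Trp53i13 (0.0575). Chgb differed from Chga by 0.166 on this log2 scale, with 866 genes nearer, and Insm1 by 0.171. For Pcsk1 the nearest were Ckb (0.0899), Ifi47 (0.0941), Esyt1 (0.0944), the antisense gene Gm49086 (0.0946) and H2-D1 (0.1), a gene with near-identical copies, so that its count is uncertain. Chgb lay at 0.209 with 101 genes nearer. For Cpe, added after its values were seen, they were Cmah (0.212), Fam19a3 (0.244), Plxnc1 (0.263), Vwf (0.266) and S1pr1 (0.279). None of the 5 nearest genes of any of the 3 was another of the 9.

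For the other endocrine fate factors, of 22 listed, 19 were tested, none passed the edgeR threshold over all genes, and DESeq2 called none. There were 0 higher and 1 lower at an unadjusted p below 0.05, against 9.32% and 7.09% of all genes. The median log2 fold change was −0.055, beside 0.0061 over all genes. The lower one was Prox1, a homeobox factor (log2 fold change −1.05, SE 0.33, edgeR adjusted p = 0.202), with 5.16, 2.57 and 2.64 CPM in the 3 knockouts, against 5.37, 7.67 and 8.29 CPM across the 3 controls. Highest in CPM were the corepressor gene Tle1 (log2 fold change −0.14, SE 0.16), Hopx (0.053, SE 0.23) and Atoh1, the secretory lineage factor (−0.23, SE 0.16). Without knockout replicate 1, Pax4 was higher and Prox1 and St18 were lower past the edgeR threshold, of 20 tested, against 10.0% of all genes higher and 7.44% lower in that fit.

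Other granule and processing genes went both ways. Of 30 listed, 28 were tested and none passed the edgeR threshold over all genes, with a median log2 fold change of 0.12. The log2 fold change was above 0 for 17 and below 0 for 11. The knockouts lay above all controls for 5 of the 28, against 10.0% of all genes, namely Scg2, Scg5, Vgf, Syt13 and Stx1a. They lay below all controls for 2, Ptprn2 and Cadps. At an unadjusted p below 0.05, 2 were higher and 1 lower, against 9.32% and 7.09% of all genes. The higher ones were Stx1a, a syntaxin of vesicle fusion (log2 fold change 1.34, SE 0.33, edgeR adjusted p = 0.148), and the granin gene Vgf (1.38, SE 0.51, adjusted p = 0.252), and the lower one was Ptprn2, a granule membrane phosphatase gene (−0.46, SE 0.17, adjusted p = 0.258). Stx1a had 1.52, 2.83 and 2.88 CPM in the 3 knockouts, against 1.06, 0.792 and 1.00 CPM across the 3 controls, and was the 1 gene of this list that DESeq2 called (adjusted p = 0.0258). The genes highest in CPM, namely Pam, which amidates peptide hormones, Vamp2 and Rab27a, had log2 fold changes of −0.17, −0.29 and −0.21 with edgeR adjusted p of 0.713, 0.471 and 0.471. Without knockout replicate 1, 1 of the 28 was higher past the edgeR threshold, Stx1a, and 4 were lower, Pam, Cadps2 and Vamp2 among them, against the same shares of all genes.

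The tested peptide hormone genes were on the same side as Chga. All 11 tested of 15 listed had a log2 fold change above 0 (median 0.57), and none passed the edgeR threshold. There were 4 higher and 0 lower at an unadjusted p below 0.05, against 9.32% and 7.09% of all genes. DESeq2 called 3 higher, against 3.62% of all genes. The knockouts lay above all controls for 4 of the 11, against 10.0% of all genes. Of the untested, Ucn3 went the other way, with 18 counts in the knockouts together and 42 in the controls. Insl5, Gast and Vip had 1, 1 and 2 counts against 0, 0 and 1. Gip stood at 62.1, 62.3 and 52.2 CPM in the 3 knockouts, against 46.5, 36.9 and 35.8 CPM across the 3 controls (log2 fold change 0.57, SE 0.14, edgeR adjusted p = 0.147). Nts had a log2 fold change of 0.79 (SE 0.16, edgeR adjusted p = 0.117) and Sct of 0.87 (SE 0.26, edgeR adjusted p = 0.191). Of 11 enterochromaffin and serotonin genes, 10 were tested and none passed the edgeR threshold, with a median log2 fold change of 0.068. Among these, 1 was higher and 3 lower at an unadjusted p below 0.05, against 9.32% and 7.09% of all genes. Ddc, Slc6a4 and Gch1, the highest of them in CPM, had log2 fold changes of 0.016 (SE 0.19), −0.45 (SE 0.17) and 0.75 (SE 0.14).

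**Figure D4:**
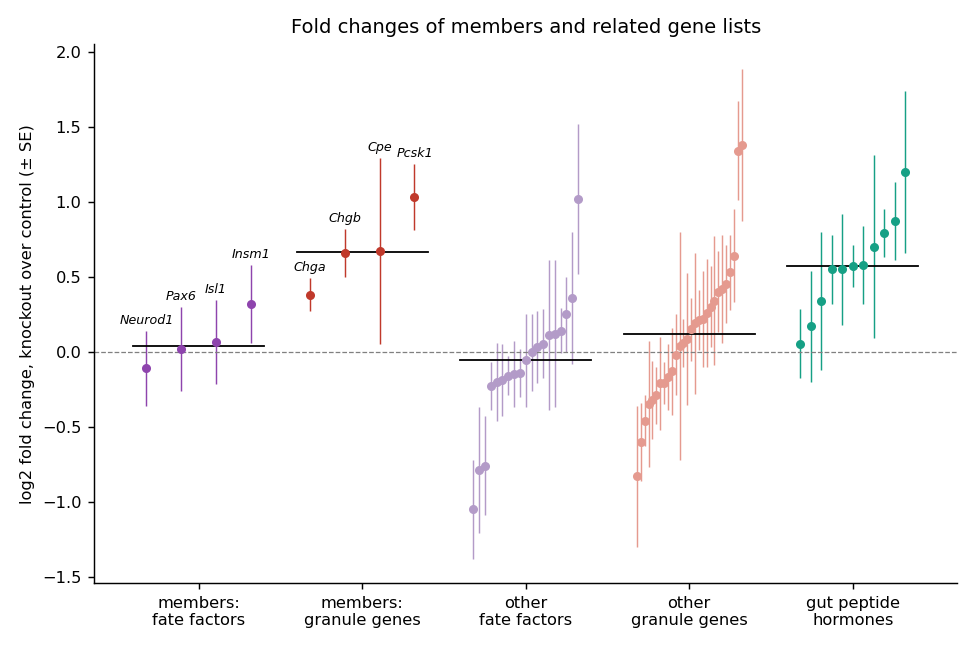
Log2 fold change of knockout over control with its SE for the tested members, split into fate factors and granule genes, and for the other listed genes, with a black line at each median. The 4 tested fate factors run from −0.11 to 0.32 and the 4 granule genes from 0.38 to 1.03, while the other granule genes run from −0.83 to 1.38 and the hormones from 0.05 to 1.20.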

How the data were processed

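Reads were handled with bcl2fastq 2.17, FastQC and Trim Galore and aligned to build mm10 with STAR 2.5.0a, these names being in the submitters' processing notes. How reads were counted, and with which strand setting, is not given in the sources used here. The labels name both poly-A selection and a ribosomal RNA removal kit. The authors deposited 1 table of raw, unscaled read counts for all 6 libraries. Exon lengths came from GENCODE mouse release 21, which holds 53229 of the 54446 versioned gene identifiers (97.8%). Promoter windows are those of RefSeq on GRCm38.p6.

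Groups came from the sample titles. The test on counts was that of edgeR 4.0.16, run in R 4.3.3 (trimmed-mean scaling, default filter with a minimum count of 10, genotype as the sole term, two-sided quasi-likelihood test, Benjamini-Hochberg adjustment over 15068 genes, threshold 0.05). Standard errors were taken from the fold change and the F statistic, and log2 CPM used a prior count of 2. Counting intervals are exact, cover 95% of counting error only, and ignore that PCR reads are not independent molecules. The code was tested on simulated data. Alternatives were DESeq2 1.42.0 size factors and Wald test, library totals, no filter, 1 CPM in 3 libraries, limma-voom 3.58.1, a replicate block, sex by Xist and Ddx3y as a covariate, and leaving out each library. DESeq2 without knockout replicate 1 was added after the values were seen.

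Named genes were all 9 members, and in each list the genes past the threshold or otherwise the 3 most abundant, with the 5 nearest profiles of Chga and of the member with the largest fold. Some listed genes are not reported here. Genes at an unadjusted p, and granule genes whose groups did not overlap, were added after their values were seen. The members and lists were chosen with earlier results of these data known. As a check of pairing, each library was centred on its group mean, and libraries of the same replicate number then had correlations of 0.117, 0.119 and 0.149, all above 0.1, against −0.143 to 0.00929 for the others. No label says what a number marks. With the replicate block, 0 genes passed in all, and no call of the 9 genes changed. Libraries of 1 group always differed by more than sampling noise (lowest chi-square per gene 23.8).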

Additional observations from a re-analysis of the deposited data

How the results depend on the processing

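By edgeR none of the 9 genes was called, and this held in 11 of 15 alternatives. The count was 1 with no filter (Pcsk1, adjusted p = 0.0449), 2 with the DESeq2 Wald test (Pcsk1 and Chgb), and from 0 to 3 with 1 library left out, the 3 being without knockout replicate 1, where DESeq2, an alternative chosen after seeing the data, called the same 3. Pcsk1 kept a log2 fold change of 0.83 to 1.24, Chgb of 0.50 to 0.78 and Chga of 0.27 to 0.46 over the 15 alternatives, the adjusted p running from 1.61e-09 to 0.426, 4.57e-05 to 0.446 and 0.0177 to 0.507.

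Over all genes, 8 were higher and 1 lower, and 196 and 88 with no filter, 546 and 293 with the DESeq2 Wald test, 4 higher with limma-voom, 5 lower with library totals, 3 lower with the sex covariate, 0 and 0 with the replicate block, and 0 to 1549 and 0 to 1151 with 1 library left out. The replicate block moved no other count reported here. Lists with 0 calls had with DESeq2 1 of 28 granule, 3 of 11 hormone, 2 of 10 enterochromaffin, 4 of 6 smooth muscle and 5 of 12 leukocyte genes. These stand against 546 higher and 293 lower among all 15068 tested. With no filter these lists had 1 hormone, 2 enterochromaffin and 1 leukocyte gene. With 1 library left out they had 0 to 3 fate, 0 to 5 granule, 0 to 5 hormone, 0 to 4 enterochromaffin, 0 to 2 neuron, 0 to 4 leukocyte and 0 to 2 epithelial genes. The upper ends were all without knockout replicate 1, where 10.0% of all genes were called higher and 7.44% lower. DESeq2 without knockout replicate 1 called 1883 genes higher and 1401 lower of 15470. Among them were 2 of 20 fate, 5 of 28 granule, 5 of 12 hormone, 4 of 11 enterochromaffin and 2 of 3 neuron genes. So were 2 of 6 smooth muscle, 5 of 12 leukocyte and 2 of 9 epithelial genes. It gave −0.17 for Pax6 and −0.47 for Cpe. The cause was not tested.

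Log2 fold changes close to 0 changed sign. Isl1, at 0.068, was −0.044 with library totals and from −0.051 to 0.23 with 1 library left out. Neurod1, at −0.11, was 0.012 with the sex covariate and from −0.22 to 0.083 with 1 library left out. Pax6, at 0.017, was −0.083 with library totals, −0.019 with limma-voom, −0.0011 with the replicate block and from −0.18 to 0.20 with 1 library left out. Cpe, at 0.67, ran from −0.47 without knockout replicate 1 to 1.04 with another library left out.

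With 3 libraries a group and 24 and 14 pooled counts for Neurog3 in knockouts and controls, depth limits that gene most.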

Other observations

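Of the genes for tetrahydrobiopterin, the cofactor of serotonin synthesis, the first enzyme of synthesis and the recycling enzymes lay on opposite sides. These genes are also expressed outside endocrine cells, and they were picked after their values were seen. Gch1, which makes the first step of synthesis, stood at 51.3, 46.8 and 51.9 CPM in the 3 knockouts, against 33.4, 24.5 and 31.6 CPM across the 3 controls (log2 fold change 0.75, SE 0.14, edgeR adjusted p = 0.11). Qdpr, which regenerates the cofactor, stood at 28.8, 27.1 and 29.4 CPM in the 3 knockouts, against 41.0, 53.0 and 52.0 CPM across the 3 controls (log2 fold change −0.78, SE 0.13, edgeR adjusted p = 0.095). Neither passed in the edgeR test, while DESeq2 gave adjusted p of 0.00101 for Gch1 and 0.000109 for Qdpr. Knockout replicate 1 lay with the other knockouts for both genes, and without it the edgeR adjusted p was 0.017 for Gch1 and 0.0107 for Qdpr. Pcbd1, the other recycling gene, had a log2 fold change of −0.50 (SE 0.15, edgeR adjusted p = 0.197).

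Ret, a receptor gene from the enteric neuron list, stood at 4.70, 9.54 and 7.85 CPM in the 3 knockouts, against 5.10, 3.54 and 3.26 CPM across the 3 controls, and Tubb3 of the same list had 17 counts in the knockouts together and 0 in the controls, while Elavl4 had 2 and 1. The groups overlapped for Ret, and the log2 fold change was 0.89 (SE 0.31, edgeR adjusted p = 0.233).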
